A study of Mus musculus with 3 samples.

Results

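The genes of the SCL complex were examined for binding of ETO2 at their own loci. The 9 genes were Tal1, which encodes SCL, Pdzk1ip1, whose downstream flank holds a known Tal1 enhancer, Tal2, Lyl1, Lmo2, Ldb1, Tcf3, Tcf4 and Tcf12. An ETO2 site was assigned to a gene when its summit, the base with the most fragments in a peak, lay inside the gene or within 100 kb of it, or when the gene had the nearest protein-coding start. Of 3192 ETO2 sites in all, 9 met this rule.

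ETO2 occupancy had been measured by chromatin immunoprecipitation and sequencing (ChIP-seq) in FLK1+ mesoderm, the cells with blood and vessel potential that form in embryoid bodies grown from mouse embryonic stem (ES) cells. The cells were wild type, of the strain C57Bl/6 X Sv129, and were taken at day 4 according to the labels. Replicates 1 and 2 of the ETO2 ChIP were analysed, and the 1 input sample entered only as the control of replicate 1. Since the sources used here do not tie the replicates to separate cultures, differences between them may be technical. Both ETO2 samples also carry the same ChIP number in their labels, so it is not clear that they are separate immunoprecipitations. Calls and summits shared by the replicates may therefore not be independent.

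SCL is a basic helix-loop-helix protein that pairs with an E-protein, encoded by Tcf3, Tcf4 or Tcf12, and the pair binds E-box sequences. LMO2 and LDB1 bridge it to a GATA factor, so that the complex can contact an E-box-like string and a GATA string side by side, and TAL2 and LYL1 are close relatives of SCL. ETO2, encoded by Cbfa2t3, is a co-repressor that reaches chromatin through this complex.

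The replicate 1 list held 2335 peaks, with 12 to 206 fragments at the summit (median 27), and the replicate 2 list held 1873 peaks, with 18 to 236 fragments (median 35). Replicate 1 was called against the input and replicate 2 without one. The local background of replicate 2, the fragment level expected at a summit, thus came from the ChIP library itself. It can include fragments of the site and of its neighbours. Fold enrichments of the lists were therefore set side by side and not subtracted or divided as a measure of binding. Sites are named below by the distance of their summit from the start of the gene, with a plus sign for downstream.

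Sequences of 200 bp centred on the replicate 1 summit are shown for 7 of the 8 sites called in both replicates, because the sites differ in where the recognition strings of the complex lie. They are from the plus strand of build NCBIM37 (mm9). Capitals mark GATA strings (on either strand, AGATAA or its variant AGATAG, and likewise TGATAA or its variant TGATAG), E-boxes (CANNTG), and the CTG and GATA of a composite pair, which is CTG followed on the same strand by GATA after 8, 9 or 10 bases. The window of the site at the start of Lyl1 overlaps an untranslated region and is not shown.
Tal1 +39.5 kb, chr4:114768402-114768601: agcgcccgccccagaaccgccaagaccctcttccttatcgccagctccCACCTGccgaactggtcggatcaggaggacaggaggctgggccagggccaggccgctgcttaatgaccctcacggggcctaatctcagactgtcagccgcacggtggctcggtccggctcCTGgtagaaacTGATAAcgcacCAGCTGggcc
Tal1 +0.2 kb, chr4:114729179-114729378: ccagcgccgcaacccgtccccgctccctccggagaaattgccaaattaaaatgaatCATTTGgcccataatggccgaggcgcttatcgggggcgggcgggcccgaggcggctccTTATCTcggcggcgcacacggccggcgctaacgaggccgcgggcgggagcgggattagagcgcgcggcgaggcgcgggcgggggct
Tal2 +17.3 kb, chr4:53809746-53809945: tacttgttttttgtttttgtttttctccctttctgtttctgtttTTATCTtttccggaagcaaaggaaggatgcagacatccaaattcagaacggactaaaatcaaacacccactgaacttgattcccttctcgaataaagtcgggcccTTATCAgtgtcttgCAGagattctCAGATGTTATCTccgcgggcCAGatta
Tal2 +38.8 kb, chr4:53831294-53831493: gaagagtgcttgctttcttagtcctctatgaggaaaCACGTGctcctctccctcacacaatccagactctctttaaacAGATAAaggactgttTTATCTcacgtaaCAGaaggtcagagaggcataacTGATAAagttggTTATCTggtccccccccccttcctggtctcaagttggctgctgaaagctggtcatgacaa
Lyl1 −1.4 kb, chr8:87223857-87224056: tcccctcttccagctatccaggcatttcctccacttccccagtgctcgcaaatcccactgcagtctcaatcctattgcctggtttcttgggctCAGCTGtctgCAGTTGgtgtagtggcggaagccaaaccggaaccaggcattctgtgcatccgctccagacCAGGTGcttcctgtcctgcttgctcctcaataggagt
Lyl1 +29.5 kb, chr8:87254758-87254957: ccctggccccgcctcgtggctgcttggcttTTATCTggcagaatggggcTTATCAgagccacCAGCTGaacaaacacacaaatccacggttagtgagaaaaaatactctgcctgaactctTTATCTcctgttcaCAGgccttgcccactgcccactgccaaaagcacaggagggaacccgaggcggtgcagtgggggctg
Lmo2 −64.1 kb, chr2:103733990-103734189: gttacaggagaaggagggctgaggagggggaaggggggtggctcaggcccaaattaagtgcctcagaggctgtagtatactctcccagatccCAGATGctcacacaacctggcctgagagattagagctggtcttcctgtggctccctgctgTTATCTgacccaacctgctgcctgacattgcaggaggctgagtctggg

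Of the 9 genes, 5, namely Tal1, Pdzk1ip1, Tal2, Lyl1 and Lmo2, had an ETO2 site, and the remaining 4, Ldb1, Tcf3, Tcf4 and Tcf12, had none. Each of the 5 had a site called in both replicates, whereas 10.7% of 22225 protein-coding genes had such a site within 100 kb, and 26.9% had a site of any kind. Tal1 and Pdzk1ip1 are neighbours and were assigned the same sites, so that the 5 genes stand for 4 loci. Of the 9 sites, 8 were called in both replicates, against 31.4% of all 3192 sites, and 1 was called in replicate 1 only. Of the 9 replicate 1 peaks at these loci, 8 overlapped a replicate 2 peak (43.0% in the whole list), and all 8 replicate 2 peaks overlapped a replicate 1 peak (54.2% in the whole list). These backgrounds include calls in repeated sequence. Of the 858 sites called in replicate 2 only, 37.1% had a summit window in unique sequence, against 96.5% of all shared sites. A background over unique sequence alone is not given here.

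More than 1 shared site was found at 3 of the 4 loci. Tal1, Pdzk1ip1 and Tal2 had 2 sites called in both replicates within 100 kb and Lyl1 had 3, whereas 2.10% of protein-coding genes had at least 2. Each of the 5 genes was also the nearest protein-coding start of a site of some kind, as were 9.64% of all genes. By nearest start, Tal1, Pdzk1ip1, Tal2 and Lmo2 each held 1 shared site and Lyl1 held 2, against 3.76% of genes with at least 1 and 0.535% with at least 2. These shares are given as a background, and no test was made over the genes, which had been chosen with results of these data known.

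**Figure D1:**
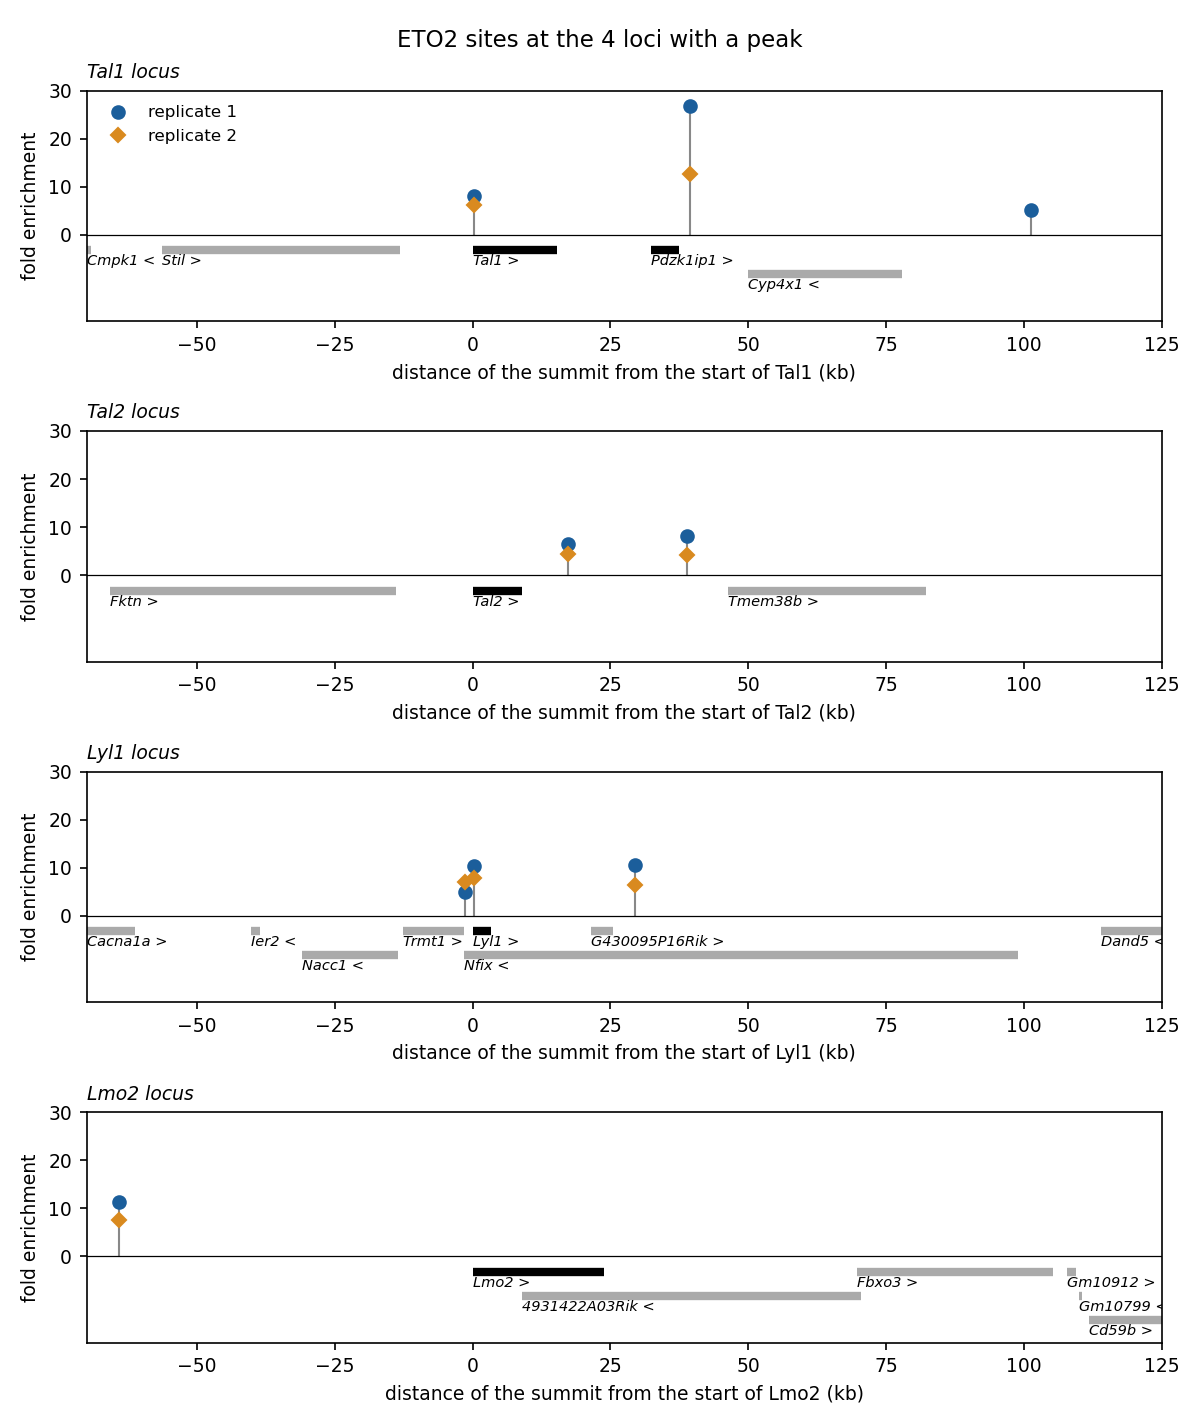
Distance of each ETO2 summit from the start of Tal1, Tal2, Lyl1 or Lmo2 (horizontal axis, kb) against the authors' fold enrichment (vertical axis), with replicate 1 as circles and replicate 2 as diamonds. Gene bodies lie under the axis, members in black and other protein-coding genes in grey, with an arrowhead for strand, and the tallest point is the Tal1 +39.5 kb site, past the end of Pdzk1ip1.

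The strongest site of the set lay downstream of Tal1. Its summit was 39.5 kb from the start of Tal1 and 1.998 kb past the end of Pdzk1ip1, which encodes a small membrane-associated protein and whose start lies 32.3 kb downstream of that of Tal1. In replicate 1 the peak spanned chr4:114768248-114768728, between genes, with 119 fragments at the summit over a local background of 5 and a fold enrichment of 26.8 (95% Poisson interval 22.2 to 32.0). In replicate 2 it had 119 fragments over a background of 8.54 and a fold enrichment of 12.6 (10.4 to 15.0). It ranked 5th of 2335 peaks in replicate 1 and 27th of 1873 in replicate 2 by fold enrichment. Among the 1002 sites called in both replicates, 39 were within the top 5% of both lists, and the Tal1 +39.5 kb site was the only member site among them. The summits of the replicates were 2 bp apart.

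A weaker site was found at the start of Tal1 itself. Its summit lay 0.248 kb downstream of the start, in an intron, and the replicate 1 peak spanned chr4:114729123-114729444. Replicate 1 had 65 fragments over a background of 10, with a fold enrichment of 8.02 (6.21 to 10.2), and replicate 2 had 42 fragments over 6.05, with a fold enrichment of 6.10 (4.44 to 8.20). It ranked 442nd and 487th in the lists.

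The downstream site was higher than the site at the start in both libraries. Relative to local background, its fragments were 3.66 times as many in replicate 1 (95% interval 2.68 to 5.03, adjusted p = 5.77e-17) and 2.01 times as many in replicate 2 (1.40 to 2.93, adjusted p = 0.000256; 2-sided exact conditional binomial tests, Benjamini-Hochberg over the 9 pairs tested). By summit fragments alone the ratios were 1.83 and 2.83, so the local background, which differed between the sites and between the libraries, moved the replicate 1 ratio by more than 1.5 times. The pairs were sites next to each other in the observed order of fold enrichment at a locus, so that each test started from a ranked difference. These tests compare sites within 1 library and cover only the counting error of the summit fragments. The local backgrounds, 5 and 10 in replicate 1, were taken as known and their own error was left out. The intervals are therefore too narrow and the p-values too small.

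The third site of the locus, Tal1 +101.2 kb at chr4:114830064-114830414, was called in replicate 1 only. It had 19 fragments over a background of 4.06 and a fold enrichment of 5.24 (3.23 to 8.07), the median of the replicate 1 list. Its nearest protein-coding start is that of Cyp4x1, a cytochrome P450 gene, at 23.4 kb. Of the 24-base strings in its summit window, 49.4% occurred once in the genome, compared with 100% at each of the other 8 sites, and the part of repeated sequence in this call was not tested. Relative to local background, the site at the Tal1 start had 1.39 times as many fragments, which did not pass the test (interval 0.822 to 2.45, adjusted p = 0.501, exact test). By summit fragments alone the ratio was 3.42 and did (adjusted p = 2.14e-06, exact test).

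**Figure D2:**
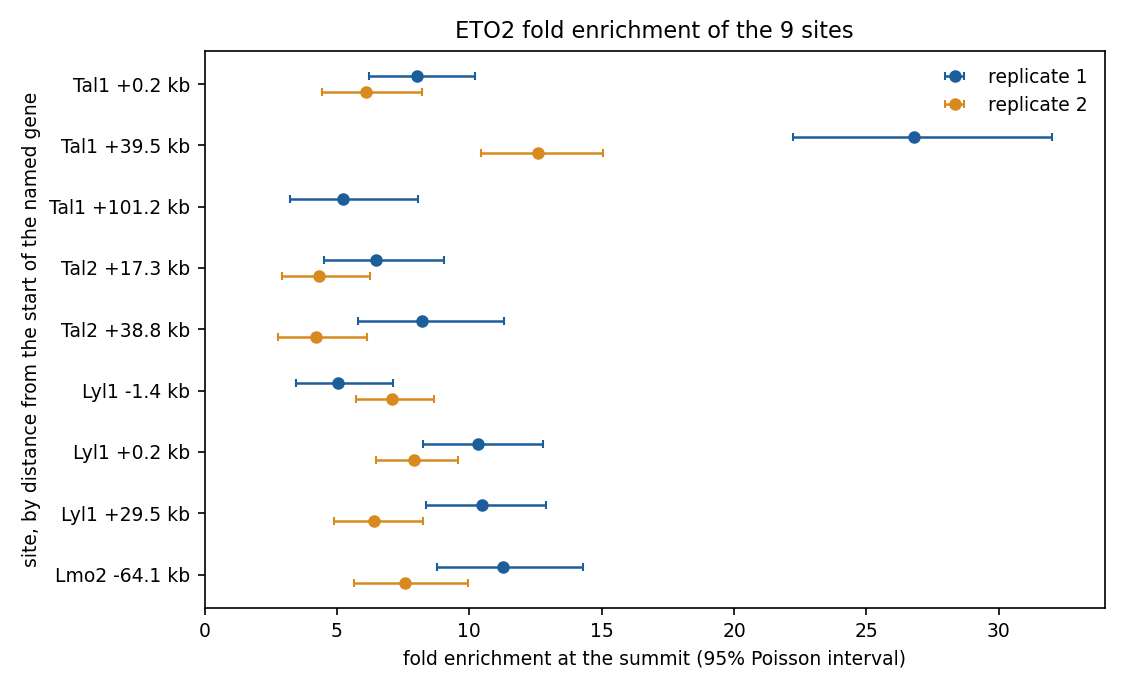
Fold enrichment at the summit (horizontal axis) of the 9 sites in replicate 1 (blue) and replicate 2 (orange), with 95% Poisson intervals from the summit fragments. The Tal1 +39.5 kb site reached 26.8 and 12.6, and the Lyl1 −1.4 kb site is the only 1 of the 8 shared sites with the higher value in replicate 2.

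Tal2, a relative of SCL, had both of its sites downstream and none at its start. The Tal2 +17.3 kb site, at chr4:53809715-53810066 between genes, had 33 fragments over 6.00 in replicate 1 and a fold enrichment of 6.47 (4.50 to 9.03). In replicate 2 it had 27 fragments over 5.46 and a fold enrichment of 4.33 (2.91 to 6.24). The Tal2 +38.8 kb site, at chr4:53831274-53831554, lay closer to the start of Tmem38b, an ion channel gene 7.52 kb away. It had 36 fragments over 5 and a fold enrichment of 8.22 (5.81 to 11.3) in replicate 1, and 25 fragments over 5.19 and a fold enrichment of 4.20 (2.78 to 6.12) in replicate 2. The order of the pair turned between the replicates and neither difference passed the test (ratio 1.31, interval 0.793 to 2.17, adjusted p = 0.501 in replicate 1, and 1.03, interval 0.574 to 1.84, adjusted p = 1 in replicate 2; exact tests). In replicate 2 these were the lowest fold enrichments of the 8 shared sites.

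Lyl1, the other close relative of SCL, had 3 sites, all called in both replicates. The gene lies within the annotated span of Nfix, a gene of the opposite strand whose start is 98.9 kb away. The site at its start had a summit 0.196 kb downstream, in an untranslated region of Lyl1 and an intron of Nfix, with the replicate 1 peak at chr8:87225259-87225867. Replicate 1 had 84 fragments over 10, with a fold enrichment of 10.3 (8.26 to 12.8), and replicate 2 had 104 fragments over 12.3, with a fold enrichment of 7.92 (6.49 to 9.58). It was the second highest of the member sites in replicate 2, ranking 193rd of that list.

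The Lyl1 −1.4 kb site, 1.595 kb from the first, had its replicate 1 peak at chr8:87223835-87224071, in an intron of Nfix. It had 31 fragments over 7.45 and a fold enrichment of 5.04 (3.46 to 7.11) in replicate 1, but 94 fragments over 12.4 and a fold enrichment of 7.08 (5.73 to 8.65) in replicate 2. The ratio of fragments, replicate 1 to replicate 2, was 0.330, the lowest of all 1002 shared sites, whose median ratio was 1. It was also the only member peak that was wider in replicate 2, with 312 bp against 237 bp. With 1 library on each side, this gap has no replicate check.

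The site Lyl1 +29.5 kb, at chr8:87254583-87255004 in an intron of Nfix, lay nearest to the start of G430095P16Rik, 7.95 kb away. It had 85 fragments over 10 and a fold enrichment of 10.5 (8.37 to 12.9) in replicate 1, and 58 fragments over 8.22 and a fold enrichment of 6.40 (4.89 to 8.24) in replicate 2. In replicate 1 it and the site at the start did not differ beyond counting error (interval of the ratio 0.74 to 1.38, adjusted p = 1, exact test). The start site stood above the −1.4 kb site there, with a ratio of 2.02 (1.32 to 3.15, adjusted p = 0.00189, exact test). This test took the backgrounds of 10 and 7.45 as known, and whether the difference outlasts their own error was not tested. In replicate 2 the start site and the −1.4 kb site did not differ beyond counting error (ratio 1.12, interval 0.84 to 1.5, adjusted p = 0.652, exact test), and neither did the −1.4 kb and +29.5 kb sites (ratio 1.07, interval 0.765 to 1.51, adjusted p = 0.952, exact test). By summit fragments alone the latter ratio was 1.62 and passed (adjusted p = 0.00787, exact test). The replicate 2 backgrounds at the start and −1.4 kb sites were 12.3 and 12.4, against a median of 5.595 over that list. They came from the ChIP library itself, and how far fragments of these neighbouring sites raised them was not tested. The −1.4 kb site was the lowest of the locus in replicate 1 and the middle one in replicate 2.

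**Figure D3:**
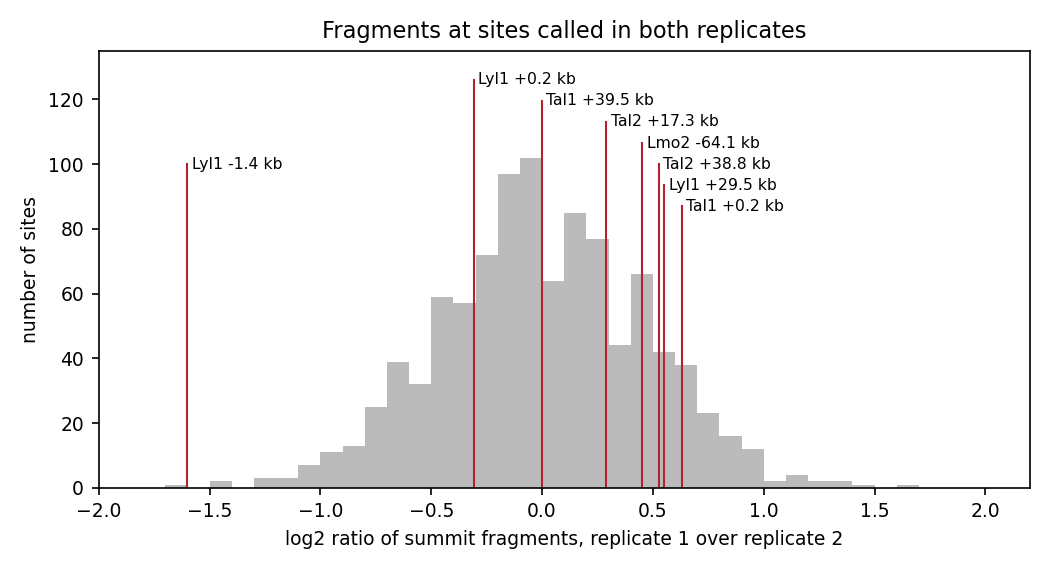
Number of sites called in both replicates (vertical axis) by the log2 ratio of their summit fragments, replicate 1 over replicate 2 (horizontal axis), with the 8 member sites as red lines whose heights carry no value. The Lyl1 −1.4 kb site lies at the lower end, and the other 7 lie among the bulk of the 1002 sites.

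Lmo2, which encodes the LIM-only bridging protein, had a single site, far upstream. Its summit lay 64.1 kb before the start of Lmo2, between genes, with the replicate 1 peak at chr2:103733897-103734298. It had 67 fragments over 7.06 and a fold enrichment of 11.3 (8.77 to 14.3) in replicate 1, and 49 fragments over 5.61 and a fold enrichment of 7.56 (5.64 to 9.95) in replicate 2. It was the second highest member site in replicate 1 (rank 168) and the third in replicate 2 (rank 238). The next ETO2 site was 205 kb away, which makes it the most isolated of the 9.

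No site was assigned to Ldb1, which encodes the dimerising partner of LMO2, or to the E-protein genes. The closest site to Tcf12 was 167 kb from the gene, nearest to Gcom1, with fold enrichments of 8.68 and 4.51. For Tcf3 it was 264 kb away, nearest to Mob3a, with 8.18 and 6.20. For Ldb1 it was 382 kb away, called in replicate 2 only, nearest to Fbxw4, and for Tcf4 it was 2268 kb away, also in replicate 2 only. These loci were without a called peak in these lists, which does not exclude occupancy below the callers' thresholds.

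The limit of 100 kb fell in a gap. Measured from the nearest member gene, the sites farthest away were Lmo2 −64.1 kb, at 64.1 kb, and Tal1 +101.2 kb, at 63.7 kb from the end of Pdzk1ip1. The latter site was also assigned to Tal1, whose end lies farther from it. The first site beyond the limit was 117 kb from Lmo2, nearest to Cd59a, called in replicate 1 only with a fold enrichment of 11.3, followed by the site 167 kb from Tcf12.

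The median fold enrichment of the member sites was 8.22 in replicate 1 and 6.74 in replicate 2, compared with 5.24 and 4.85 over the whole lists and 6.83 and 5.39 over the shared sites. Of the 8 shared member sites, 6 exceeded the shared median in each replicate. In replicate 1 those below it were Tal2 +17.3 kb and Lyl1 −1.4 kb, and in replicate 2 they were both Tal2 sites. The local background of replicate 1 was a whole number, within 0.001, at 6 of the 9 member sites and at 45.4% of all replicate 1 peaks. Such a value was taken to be the number of input fragments at the summit, which has a counting error of its own. The summits of the shared member sites differed by 2 to 23 bp between replicates (median 14.5 bp, against 26 bp over all shared sites). Of the 8, 2, at Tal1 and Lyl1, lay within 1 kb of a protein-coding start, as did 5.49% of all shared sites, and the pair at the Lyl1 start lay within 2 kb of each other, which applied to 3.89% of all shared sites.

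**Figure D4:**
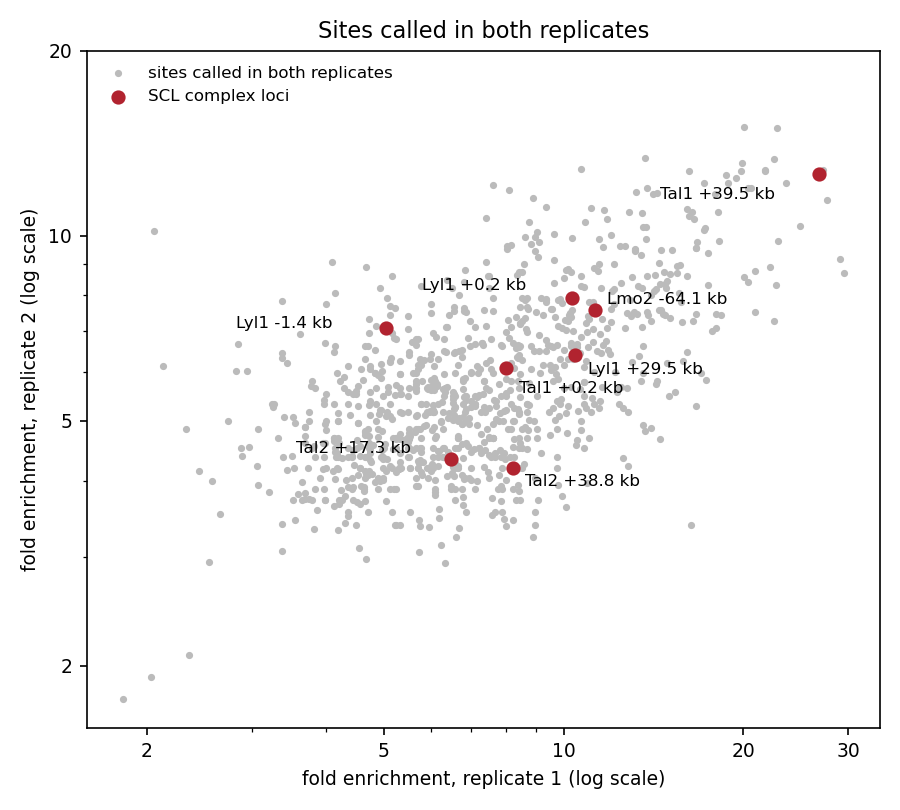
Fold enrichment in replicate 1 (horizontal axis, log scale) and replicate 2 (vertical axis, log scale) of the 1002 sites called in both replicates (grey), with the 8 sites of the SCL complex loci in red. The Tal1 +39.5 kb site stands near the upper right of the cloud. In replicate 2 the Tal2 sites are the lowest of the 8, and the other member sites lie between.

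In 100 bp centred on the replicate 1 summit, GATA strings were found at 5 of the 9 sites and at 4 of the 8 shared ones, compared with 72.5% of all shared sites and 16.7% of windows of the same length placed 500 bp to each side of them. Centred on the replicate 2 summit, the same windows held a GATA string at 6 of the 8 shared sites, against 73.3% of all shared sites. With replicate 1 summits the 4 shared sites were Tal1 +0.2 kb, Tal2 +38.8 kb, Lyl1 +0.2 kb and Lyl1 +29.5 kb. Tal2 +38.8 kb held 4 GATA strings, 2 on each strand, within 42.5 bp of the summit, the most of any member window. Tal1 +0.2 kb held AGATAA on the minus strand, centred 16.5 bp from the summit.

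The site with the highest enrichment was not among them. In its inner 100 bp, centred on the replicate 1 summit, Tal1 +39.5 kb had no whole match to any of the 9 motif kinds searched, which says only that these letters are absent there. A GATA string and a composite pair were also absent from the window on its replicate 2 summit. In the sequence shown above, its TGATAA string was centred 81.5 bp from the summit, as the GATA end of a composite pair with 9 bases between CTG and GATA, followed by CAGCTG at 92.5 bp. An E-box, CACCTG, lay on the other side, 49.5 bp from the summit.

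At Tal2 +17.3 kb and Lmo2 −64.1 kb, GATA strings lay outside the window on the replicate 1 summit or across its edge. The replicate 2 summits were 21 and 19 bp away, and the window on each held a GATA string. At Tal2 +17.3 kb that window did not hold every GATA string. The strings there lay, from the replicate 1 summit, 53.5 bp to one side and 51.5 and 81.5 bp to the other. The latter pair each belonged to a composite with 9 bases of spacing. At Lmo2 −64.1 kb a GATA string lay at 54.5 bp and CAGATG, an E-box, at 5.5 bp. In 200 bp windows, 8 of the 9 sites held a GATA string, against 89.9% of all shared sites, 5 held a composite pair, against 54.9%, and 7 held an E-box, against 72.0%. The 9 include Tal1 +101.2 kb, which is not a shared site and held a GATA string but no composite pair or E-box. The counts at the member sites therefore depended on the width of the window and on which summit it was centred on.

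Lyl1 −1.4 kb was the only member site without a GATA string in 200 bp. Its summit lay between a pair of E-boxes, CAGCTG and CAGTTG, centred 4.5 and 5.5 bp to either side. E-boxes of the form CANNTG were found in the inner window of 4 of the 9 sites, all 4 among the 8 shared ones, against 47.8% of all shared sites and 41.9% of flanking windows. CAGCTG was found at 2 sites, both at Lyl1, against 14.6% of shared sites, and CAGATG at 1, against 16.4%.

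Composite pairs in the inner window were found at 3 sites, against 36.7% of all shared sites and 2.84% of flanks, and with replicate 2 summits at 4, Tal2 +17.3 kb added, against 38.2%. The 3 were at Tal2 +38.8 kb, with 8 bases of spacing, at Lyl1 +0.2 kb, with 9 and 10, and at Lyl1 +29.5 kb, with 8 and 9. At Lyl1 +29.5 kb the CTG of the first pair overlapped the CAGCTG E-box. The ETS string AGGAA was found at 3 sites (46.0% of shared sites), and the RUNX string TGTGGT and the KLF string CCACCC at none (12.4% and 9.38%). The reversed GATA strings used as a control were found at 1 site, the unshared Tal1 +101.2 kb. They were found at 0 of the 8 shared member sites, against 13.5% of all shared sites.

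**Figure D5:**
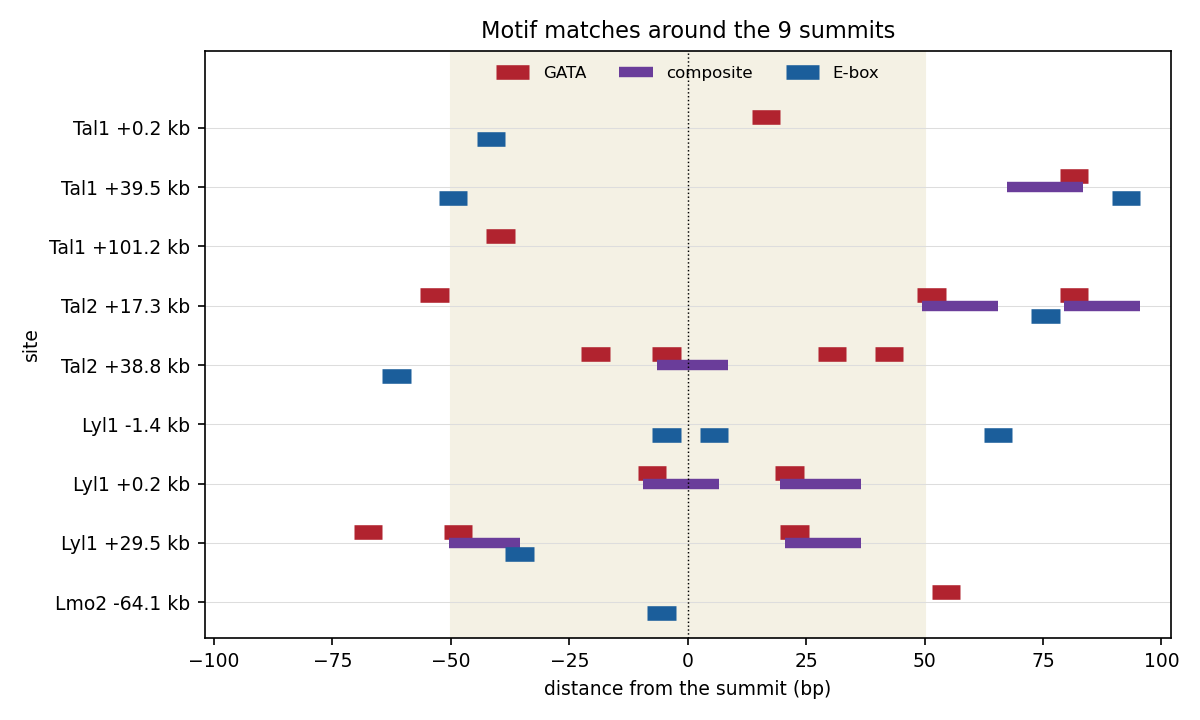
Position of GATA strings (red), composite pairs (purple) and E-boxes (blue) relative to the replicate 1 summit (horizontal axis, bp) at the 9 sites (vertical axis), with the inner 100 bp around the replicate 1 summit shaded. Tal1 +39.5 kb carries its composite pair 75.5 bp from the summit, outside the shaded part, and Lyl1 −1.4 kb has E-boxes and no GATA string.

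Other genes of the same complex were counted by the same rule. Of 11 partners and cofactors, 5 had a site called in both replicates within 100 kb, against 10.7% of all protein-coding genes. Cbfa2t3, which encodes ETO2, had 5 such sites, with highest fold enrichments of 27.7 and 11.4. Gfi1b, a zinc-finger repressor gene, had 3 and Gata2, a GATA factor of blood progenitors, had 2, while Gata1 and the acetyltransferase gene Crebbp had 1 each. At Gfi1b and Crebbp none of these sites was nearest to the start of the gene itself. The remaining 6, Hdac1, Hdac2, Kdm1a, Rcor1, Sin3a and Ep300, had no site.

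Among the LDB1 and LMO relatives and the single-stranded DNA-binding stabilisers, 2 of 7 had a site and 1 had a shared one, Lmo1, at fold enrichments of 22.5 and 13.3, although the nearest start there was that of another gene. Over all protein-coding genes 26.9% had a site and 10.7% a shared one. Among the Id genes, whose products bind E-proteins and keep them off DNA, 3 of 4 had a site and 2 had a shared one. These were Id1 (6.94 and 4.94), where another gene had the nearest start, and Id3 (5.30 and 4.20). The genes with the most shared sites nearest to their start were Smad7 with 7, Runx1 with 6, and Cbfa2t3, Cited2 and Gse1 with 5 each, compared with 2 for Lyl1 and 1 for Tal1.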

How the data were processed

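ETO2 ChIP-seq peaks of 2 replicates were used. Per the study's methods, read pairs were aligned with Bowtie to mm9 and peaks were called with MACS2 (version 2.0.10 in the submitters' processing notes), replicate 1 against the input and replicate 2 without one. The deposited lists give for each peak a score derived from its q-value and −log10 of the p-value and the q-value, as the authors' caller wrote them. The deposited fold enrichment is the ratio, at the summit, of scaled fragments plus 1 to local background plus 1. A list of the whole series gives positions only and was not used.

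Summit fragments and local background were solved from the fold enrichment and p-value of each peak with a Poisson model. A solution was found for 100% of peaks in both lists, within 0.000752 of the deposited −log10 p, with a scaling of the replicate 1 ChIP by 1.34. The solver was checked on lists simulated with its own model and a known scaling. The pair test was checked on simulated pairs and was given their true backgrounds, so the check does not cover background error. Intervals are exact 95% Poisson intervals and, with the tests, cover only the counting error of the summit fragments, with local backgrounds taken as known. Other error is not covered, since read pairs carry no molecular identifiers and 2 libraries give no spread for a single site. Depth limits sites with few fragments.

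Peaks overlapping by at least 1 bp were 1 site, with the summit of replicate 1 where both called it. Fragments over shared sites differed between the replicates by more than sampling noise (chi-square per degree of freedom 2.11). Genes and start sites were from GENCODE annotation of the same build. Within a locus and a library, sites adjacent in the order of fold enrichment, not in position, were compared by 2-sided exact conditional binomial tests given their backgrounds. Motifs were counted on both strands. The genes, lists, motifs and the composite spacing were chosen with earlier results of these data known. All 9 genes and all their sites were named, and other genes came from fixed lists and from the 5 genes with the most shared sites. Sequences were read from the NCBIM37 genome. Analyses used Python 3.11.15, numpy 2.4.6, scipy 1.17.1, pandas 2.3.3 and pysam 0.24.0.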

Additional observations from a re-analysis of the deposited data

How the results depend on the processing

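The counts of sites, of sites called in both replicates and of genes with a site kept within 1.5 times of their reported values under every alternative tried, among them a stricter fold enrichment, a nearer limit of 20 kb (with sites kept by nearest start), and, chosen after seeing the data, start sites of all transcripts. GATA strings were counted at 3 sites in 50 bp windows, 8 in 200 bp windows and 2 of the 6 sites left by the 20 kb limit, 5 of them within 20 kb and Lmo2 −64.1 kb kept by nearest start. Composite pairs were counted at 5 sites in 200 bp windows and at 1 of those 6. With each replicate left out in turn, GATA strings were counted at 6 of 8 sites on replicate 2 summits and at 5 of 9 on replicate 1 summits, and composite pairs at 4 and 3. By construction a wider window or fewer sites change such counts. Pairs of sites adjacent in the order of fold enrichment past an adjusted p of 0.05 numbered 3, and 5 by summit fragments alone, where Tal1 +0.2 kb against Tal1 +101.2 kb (ratio 3.42) and Lyl1 −1.4 kb against Lyl1 +29.5 kb in replicate 2 (1.62) were added. With each replicate left out in turn they numbered 1 to 2, since each replicate holds only part of the pairs. No result reversed. No paired analysis was possible because the input has no list of its own and the ETO2 samples form a single group.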
